A study of Mus musculus with 4 samples.

Results

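The lymphocyte quiescence factors are a set of 10 genes whose products hold resting B and T cells out of the cell cycle, in a low metabolic state and in circulation. The members were Klf2, Klf3, Foxo1, Foxo3, Foxp1, Btg1, Tob1, Rbl2, Txnip and Pdcd4. They were taken by gene symbol from the deposited table of gene counts, and all 10 were found among 41342 named genes. All 10 passed the filter for testing, a mean of 50 counts or more per library, as did 11286 genes in all.

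RNA from splenic B cells was sequenced as 4 libraries, 1 for each group. The groups were resting and LPS-activated cells of ΔleftPAL mice (delta2leftPAL in the labels) and resting and LPS-activated cells of ΔIRIS mice. Both alleles alter the 3' regulatory region of the IgH locus, a group of B cell enhancers downstream of the heavy chain genes. ΔleftPAL mice lack the enhancers hs3a and hs1,2 and the intervening inverted repeats (IRIS) between them. ΔIRIS mice keep all enhancers, with hs3a inverted, and lack the intervening repeats. Both lines were homozygous, came from E14 embryonic stem cells and had a selection cassette removed by cre. All 4 groups therefore carry a targeted 3' regulatory region, and the wt libraries were not analysed here. The labels and the methods give the background as 129, and the methods also describe chimeras mated with C57Bl/6 animals. The number of backcrosses is not given in the sources used here.

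Resting cells were B cells freshly freed of CD43-bearing cells. LPS-activated cells had been kept for 48 h in medium with 5 μg per ml LPS, the bacterial cell wall component that stimulates B cells through Toll-like receptor 4, and were recovered on a density gradient. Culture and LPS cannot be told apart, because no cells were cultured without LPS. According to the labels each RNA came from an equal pool of B cells of 4 animals, while the methods describe 2 pools of 2 samples per genotype and a legend describes 3 male mice of 8 to 12 weeks. The spread between animals is therefore not visible in any value given here.

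Quiescence is an actively kept state. KLF2 is a zinc finger factor that drives genes for recirculation, such as S1pr1, and restrains proliferation. Factors of the FOXO family enter the nucleus when the PI3K and AKT pathway is idle and switch on cell cycle inhibitors, homing receptors and inhibitors of PI3K. BTG and TOB proteins recruit the CCR4-NOT deadenylase to mRNA and shorten its life. RBL2, the p130 pocket protein, is the repressive core of the DREAM complex, which silences cell cycle genes. TXNIP binds thioredoxin and promotes removal of glucose transporters from the membrane, and PDCD4 blocks the translation helicase eIF4A. Antigen or LPS signals through AKT and mTOR are known to inactivate several of these proteins, so mRNA is only 1 layer of their control.

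The counts of named genes were between 23615496 and 29776108 per library. All values per library are CPM (counts scaled to a common library size) with TMM factors, which align the libraries on the bulk of their genes, and 3 counts corresponded to 0.102 to 0.123 CPM. The 7 B cell markers summed to 4065 and 3474 CPM in resting ΔleftPAL and ΔIRIS cells and to 2561 and 2694 CPM after LPS. Summed markers of other cells were lower after LPS in both genotypes. In the order resting ΔleftPAL, resting ΔIRIS, LPS ΔleftPAL and LPS ΔIRIS, the 6 erythroid markers summed to 41310, 28660, 58.2 and 123.7 CPM. The 8 NK and myeloid markers summed to 296 and 392.8 CPM at rest and to 6.98 and 16.1 CPM after LPS. Of the latter, Itgam was at 13.1 and 10.5 CPM at rest and at 5.197 and 15.4 CPM after LPS, and so made up most of the sums after LPS (named after its values were seen). The 7 T cell markers summed to 22.3 and 25.6 CPM at rest and to 0.186 and 0.171 CPM after LPS. After LPS all 7 T cell markers and 5 of the 8 NK and myeloid markers had at most 3 counts, and Cd3d, Cd3e, Cd3g, Ncr1, S100a8 and S100a9 were at 0. These sums were lower after LPS as the members were, and their part in the falls of the members and of the related genes below was not tested. In bulk RNA, fewer cells of a type and less RNA per cell cannot be told apart.

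All 10 quiescence factors were lower in the LPS library than in the resting library of the same genotype. The share of all genes lower in both genotypes by any amount is not given here. The largest falls were those of Klf2 (10.4-fold), Btg1 (7.16-fold) and Pdcd4 (4.86-fold), as estimated over both genotypes, and the smallest was that of Rbl2 (1.37-fold). In edgeR's quasi-likelihood test of the change shared by both genotypes, all 10 members passed as lower at an adjusted p under 0.05, against 27.9% of all genes tested. None passed as higher, against 36.4% of all genes. This test has 1 residual degree of freedom per gene, the difference of the LPS response between the genotypes. The error of each gene is moderated in edgeR toward that of the other genes tested, so the p-values rest in part on other genes. A fall of at least 2-fold in both genotypes, counted with no test, was seen for 7 of the 10 members against 13.1% of all genes, the exceptions being Foxp1, Tob1 and Rbl2. The members, and the related lists below, were chosen with earlier results of these data known. Their counts beside the shares of all genes are therefore descriptions and no test of the set. The median shared log2 change was -1.66 over the members and 0.12 over all genes tested. Separately, the medians were -1.29 in ΔleftPAL and -1.80 in ΔIRIS cells for the members, and 0.12 and 0.13 for all genes. Summed over the 10 members, the level was 2343 CPM at rest and 799.5 CPM after LPS in ΔleftPAL cells, and 2947 and 652.8 CPM in ΔIRIS cells.

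**Figure D1:**
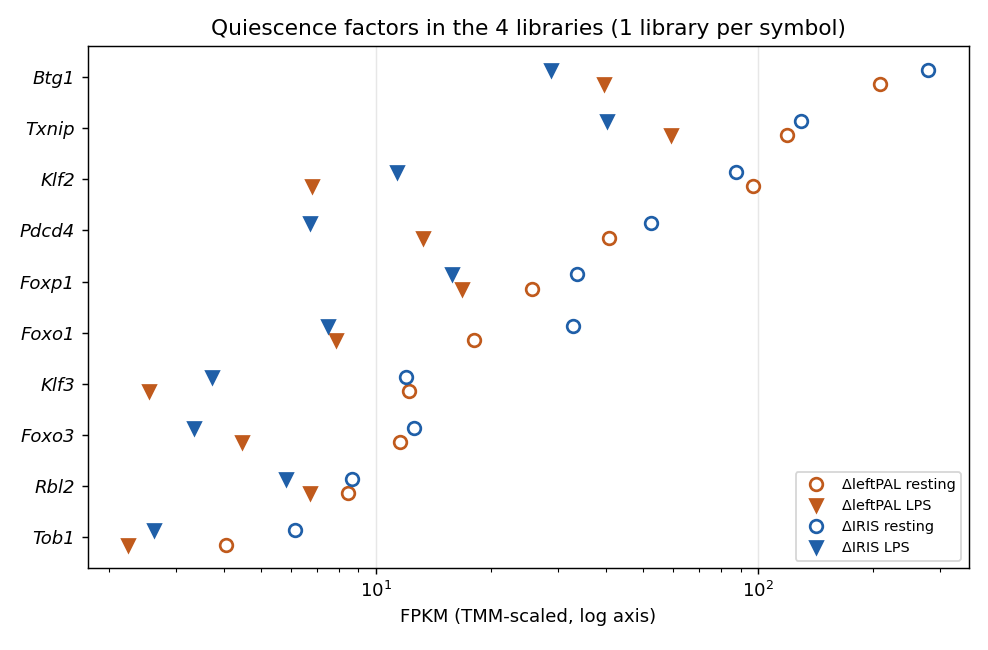
Expression of the 10 quiescence factors in the 4 libraries as FPKM (fragment counts scaled by the exon length of the gene and TMM-adjusted library size) on a log axis. Open circles are resting and filled triangles LPS-activated cells, in orange for ΔleftPAL and blue for ΔIRIS, and each symbol is 1 library. For each gene both triangles lie to the left of both circles, and the share of all genes tested with this order is not given here.

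The sequences upstream of 3 members are shown as examples of what was found near their starts, and were chosen after the matches were seen. They come from the 6 members whose RefSeq start coincides with the start of the gene in the count table (also Tob1, Rbl2 and Pdcd4). They are 250 bases 5' of the start, on the strand of the gene (plus in each case), from RefSeq on GRCm38.p6. The windows are chr3:96557707-96557956 for Txnip, chr10:96616751-96617000 for Btg1 and chr3:52268087-52268336 for Foxo1. Capitals mark matches, on either strand, to the CCAAT box, to the forkhead letters GTAAACA, to the E-box CACGTG or to its looser form CACGNG.
Txnip: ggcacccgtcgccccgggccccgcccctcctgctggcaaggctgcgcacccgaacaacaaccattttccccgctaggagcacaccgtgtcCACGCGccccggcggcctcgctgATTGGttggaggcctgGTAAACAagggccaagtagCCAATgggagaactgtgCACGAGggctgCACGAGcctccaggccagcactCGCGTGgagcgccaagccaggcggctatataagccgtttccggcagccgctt
Btg1: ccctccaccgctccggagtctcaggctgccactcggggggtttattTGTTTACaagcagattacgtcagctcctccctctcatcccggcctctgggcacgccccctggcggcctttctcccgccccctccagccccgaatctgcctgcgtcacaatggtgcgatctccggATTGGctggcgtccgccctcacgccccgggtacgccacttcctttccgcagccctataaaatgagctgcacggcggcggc
Foxo1: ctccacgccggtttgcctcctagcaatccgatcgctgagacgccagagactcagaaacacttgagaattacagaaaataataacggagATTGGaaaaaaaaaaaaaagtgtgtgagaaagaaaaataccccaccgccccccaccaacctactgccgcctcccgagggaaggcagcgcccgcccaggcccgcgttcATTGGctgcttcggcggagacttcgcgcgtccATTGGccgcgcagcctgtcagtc
The Txnip window holds 2 copies of CACGAG separated by 5 bases, at bases 85 to 80 and 74 to 69 before the start. Such a pair of CACGNG letters at this spacing was found in 0.0457% of the 32851 promoter windows of the RefSeq table (15 windows, each 250 bases before to 50 after a start), and in no other member. Paired E-boxes of this kind are known as carbohydrate response elements, to which MLX binds together with the glucose-sensing factors MLXIP (MondoA) and MLXIPL (ChREBP). CACGNG as such was found in 23.5% of all windows and in those of Txnip, Foxo3 and Foxp1, and CACGTG in 6.02% and in no member. The forkhead letters GTAAACA occurred in 3.17% of all windows and in those of Txnip (bases 121 to 115) and Btg1 (bases 204 to 198). CCAAT was found in 33.8% of all windows and in those of 6 members (Btg1, Foxo1, Foxp1, Pdcd4, Tob1 and Txnip), 3 times in the Foxo1 window. The letters CCCACCC, of a kind that KLF factors bind, occurred in 15.8% of all windows and in those of Klf2, Klf3, Foxp1 and Tob1. TTTGAA, the cell cycle homology region of DREAM-bound promoters, occurred in 16% of all windows and in those of Rbl2 and Foxp1. The table held 13 windows for the 10 members. A match of letters is a description and says nothing of binding.

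Both Krüppel-like factors fell, Klf2 the most of all members, and both were at a higher level after LPS in ΔIRIS than in ΔleftPAL cells. Klf2 (ENSMUSG00000055148, chr8:72319033-72321656, plus strand, mm10) was at 179.5 CPM in resting and 12.6 CPM in LPS-activated ΔleftPAL cells, and at 161.3 and 21.02 CPM in ΔIRIS cells. Both resting libraries lay far above both LPS libraries. The level was 14.3-fold lower after LPS in ΔleftPAL cells (log2 ratio -3.83, 95% counting interval -4.00 to -3.67) and 7.67-fold lower in ΔIRIS cells (-2.94, -3.06 to -2.82). The shared change was -3.38 ± 0.25 (log2, SE; edgeR, adjusted p = 0.000353), and 3.32% of all genes tested had a lower value. Klf3, a repressor of the same family (chr5:64803523-64830129, plus strand), was at 30.3 and 6.31 CPM in ΔleftPAL cells at rest and after LPS and at 29.8 and 9.21 CPM in ΔIRIS cells. The resting libraries were close to each other and both LPS libraries were below them. Its shared change was -1.97 ± 0.20 (edgeR, adjusted p = 0.000754). In FPKM, Klf2 exceeded Klf3 by 7.94 and 7.28 times at rest and by 2.68 and 3.06 times after LPS, in ΔleftPAL and ΔIRIS cells.

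Both FOXO genes fell. Foxo1, which in developing B cells drives Il7r and the Rag genes (ENSMUSG00000044167, chr3:52268337-52350109, plus strand), was at 100.2 CPM in resting ΔleftPAL cells and at 182 CPM in resting ΔIRIS cells. After LPS it was at 43.7 CPM and 41.5 CPM. The resting libraries were thus apart and the LPS libraries together, below both. The fall was 2.29-fold in ΔleftPAL (log2 -1.20, -1.30 to -1.10) and 4.39-fold in ΔIRIS cells (-2.13, -2.22 to -2.04), with a shared change of -1.67 ± 0.25 (edgeR, adjusted p = 0.00262). Foxo3, which shares many targets with FOXO1 (ENSMUSG00000048756, chr10:42181841-42276755, minus strand), was at 87.5 and 33.7 CPM in ΔleftPAL cells at rest and after LPS and at 95.2 and 25.3 CPM in ΔIRIS cells. Its libraries did not overlap between the states, and the shared change was -1.64 ± 0.17 (edgeR, adjusted p = 0.000824). Which of the genes was at the higher level depended on the length used. In FPKM, with the exon length in the count table, the ratio of Foxo1 to Foxo3 was 1.56 and 2.61 in resting ΔleftPAL and ΔIRIS cells and 1.77 and 2.24 after LPS, but in kallisto TPM it was 0.654 and 1.34 at rest and 0.745 and 1.07 after LPS.

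Foxp1, a forkhead repressor that maintains naive lymphocytes (ENSMUSG00000030067, chr6:98925338-99522721, minus strand), was among the members with smaller falls. It was at 365.2 and 239.6 CPM in ΔleftPAL cells at rest and after LPS and at 478.8 and 225.8 CPM in ΔIRIS cells. The LPS libraries were within 1.06-fold of each other and both were under the resting ones. The shared change was -0.85 ± 0.16 (edgeR, adjusted p = 0.00593), 1.80-fold, and 19.9% of all genes had a lower value. Its call was lost in an edgeR fit without the LPS library of ΔIRIS cells and without the genotype term, with a log2 change of -0.82. With 1 LPS library left, that fit cannot tell which omission cost the call. Gm20696, a gene model on the same strand within the Foxp1 locus, held 893 and 329 counts in ΔleftPAL and 1031 and 193 counts in ΔIRIS cells. By the options stated for featureCounts, reads that fit both names are left uncounted.

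The antiproliferative mRNA regulators differed widely in level. Btg1, whose product binds the deadenylase CNOT7 and which is often mutated in B cell lymphoma (ENSMUSG00000036478, chr10:96617001-96622813, plus strand), was at 1047 CPM in resting and 198.4 CPM in LPS-activated ΔleftPAL cells. In ΔIRIS cells it was at 1399 and 144.1 CPM. The resting libraries were at least 5-fold above the LPS libraries in either genotype, by 5.27 times in ΔleftPAL (log2 -2.40, -2.44 to -2.36) and 9.71 times in ΔIRIS cells (-3.28, -3.33 to -3.23). The shared change was -2.84 ± 0.24 (edgeR, adjusted p = 0.000477), and 4.31% of all genes had a lower value. Tob1, a relative with the same binding domain (chr11:94211454-94215495, plus strand), had 138 to 409 counts per library, the fewest of the members. It was at 9.29 and 5.12 CPM in ΔleftPAL cells at rest and after LPS and at 14.1 and 6.004 CPM in ΔIRIS cells, without overlap between the states. Its shared change was -1.05 ± 0.22 (edgeR, adjusted p = 0.00933). Its call was lost without the LPS library of ΔleftPAL (log2 -0.96) and without the resting library of ΔIRIS cells (-0.74). These edgeR fits also left out the genotype term. Over the other settings that kept all libraries, the adjusted p in edgeR was 0.00229 to 0.0142.

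Rbl2 (chr8:91070057-91123844, plus strand) showed the smallest fall, and its call was lost under the most settings. It was at 58.7 and 46.9 CPM in ΔleftPAL cells at rest and after LPS and at 60.3 and 40.5 CPM in ΔIRIS cells, so that both LPS libraries were below both resting libraries. The shared change was -0.45 ± 0.13 (edgeR, adjusted p = 0.0287), and 30.1% of all genes had a lower value. The call was lost with kallisto estimated counts in edgeR (log2 -0.31, adjusted p = 0.0857) and with the DESeq2 Wald test (log2 -0.45, adjusted p = 0.0565). The call was also lost in some edgeR fits that left out 1 library and the genotype term. There the log2 change was -0.55 without the LPS library of ΔleftPAL cells. It was -0.42 and -0.34 without the resting and the LPS library of ΔIRIS cells.

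The metabolic and translational brakes fell in both genotypes, and more in ΔIRIS cells. Txnip (ENSMUSG00000038393, chr3:96557957-96561883, plus strand) was at 361.5 and 179.2 CPM in ΔleftPAL cells at rest and after LPS and at 392.9 and 122.1 CPM in ΔIRIS cells. The fall was 2.02-fold in ΔleftPAL (log2 -1.01, -1.06 to -0.96) and 3.22-fold in ΔIRIS cells (-1.69, -1.74 to -1.63), and the shared change was -1.35 ± 0.19 (edgeR, adjusted p = 0.0023). Pdcd4 (ENSMUSG00000024975, chr19:53892231-53929861, plus strand) was at 104.1 CPM in resting ΔleftPAL and 133.8 CPM in resting ΔIRIS cells, and at 33.9 and 17.2 CPM after LPS. The LPS libraries were both under the resting ones and were apart from each other. The fall was 3.07-fold in ΔleftPAL (log2 -1.62, -1.73 to -1.51) and 7.77-fold in ΔIRIS cells (-2.96, -3.09 to -2.82), with a shared change of -2.28 ± 0.33 (edgeR, adjusted p = 0.00252).

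**Figure D2:**
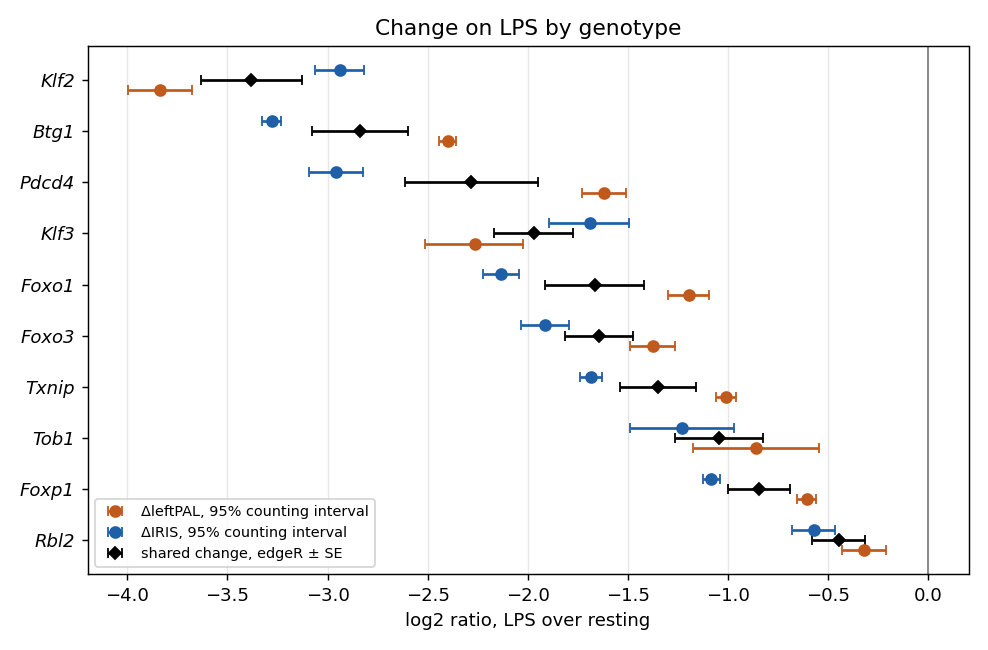
Log2 ratio of LPS over resting for each quiescence factor. Orange and blue points are the ratios in ΔleftPAL and ΔIRIS cells with 95% counting intervals, and black diamonds the change shared by both genotypes with its SE from edgeR. Every point lies below 0, and in 8 of the 10 genes, all but Klf2 and Klf3, the blue point lies to the left of the orange one.

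The genotypes were compared at rest with no test, since 1 library per group leaves no replicate check, and the intervals cover counting error only. Of the 10 members, 8 were above 0 on the log2 scale in resting ΔIRIS cells relative to ΔleftPAL cells, with a median of 0.24 against 0.00019 over all genes tested. The share above 0 was 50.04% of all genes and 56.1% of the genes lower on LPS. Only Foxo1 was at least 1.5-fold higher in ΔIRIS cells (log2 ratio 0.86, 0.79 to 0.93, or 1.82-fold), against 6.74% of all genes, and 97.2% of all genes had a lower ratio. No member was at least 1.5-fold lower, against 4.27% of all genes. Tob1 came next with 1.51-fold (0.60, 0.36 to 0.84), which falls under 1.5-fold once the prior of 0.5 CPM used for the counts is added. Btg1 was 1.34-fold, Foxp1 1.31-fold and Pdcd4 1.29-fold higher in the resting ΔIRIS library, and Foxo3 and Txnip were each 1.09-fold higher. Rbl2 (0.04, -0.06 to 0.14) and Klf3 (-0.03, -0.17 to 0.12) had intervals that included 0, and Klf2 was 1.11-fold lower (-0.15, -0.21 to -0.09). In these resting libraries the NK and myeloid and the T cell marker sums were higher in ΔIRIS cells and the erythroid sum lower, but single markers differed in direction. Lower in ΔIRIS cells were 5 of the 8 NK and myeloid, 5 of the 7 T cell and 5 of the 6 erythroid markers. Their part in the differences was not tested.

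After LPS the order of the genotypes was turned for most of these genes. The median ratio of ΔIRIS over ΔleftPAL was -0.15 over the members and 0.03 over all genes, and 7 of the 10 members were below 0, as were 44.7% of all genes and 58.96% of the genes lower on LPS. Pdcd4 was 1.97-fold lower in ΔIRIS cells (log2 -0.98, -1.14 to -0.82), the only member past 1.5-fold in this direction, against 4.5% of all genes, and 1.53% of all genes had a lower ratio. Txnip was 1.47-fold, Btg1 1.38-fold and Foxo3 1.33-fold lower in the ΔIRIS library, Rbl2 1.16-fold and Foxp1 1.06-fold. The interval of Foxo1 (-0.07, -0.19 to 0.04) included 0. Klf2 was 1.67-fold higher in ΔIRIS cells (0.74, 0.55 to 0.94), the only member past 1.5-fold in that direction, against 1.96% of all genes, and 98.8% of all genes had a lower ratio. Klf3 was 1.46-fold higher (0.55, 0.26 to 0.83), and the interval of Tob1 (0.23, -0.10 to 0.56) included 0. The level of Klf2 rested on 339 and 616 counts in the LPS libraries of ΔleftPAL and ΔIRIS cells. In these LPS libraries the erythroid sum was 58.2 CPM in ΔleftPAL and 123.7 CPM in ΔIRIS cells. At least 1.5-fold higher in ΔIRIS cells were 5 of the 6 erythroid markers. The NK and myeloid sum was 6.98 and 16.1 CPM, of which Itgam was 5.197 and 15.4 CPM. The T cell sum was 0.186 and 0.171 CPM. Their part in the differences was not tested.

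**Figure D3:**
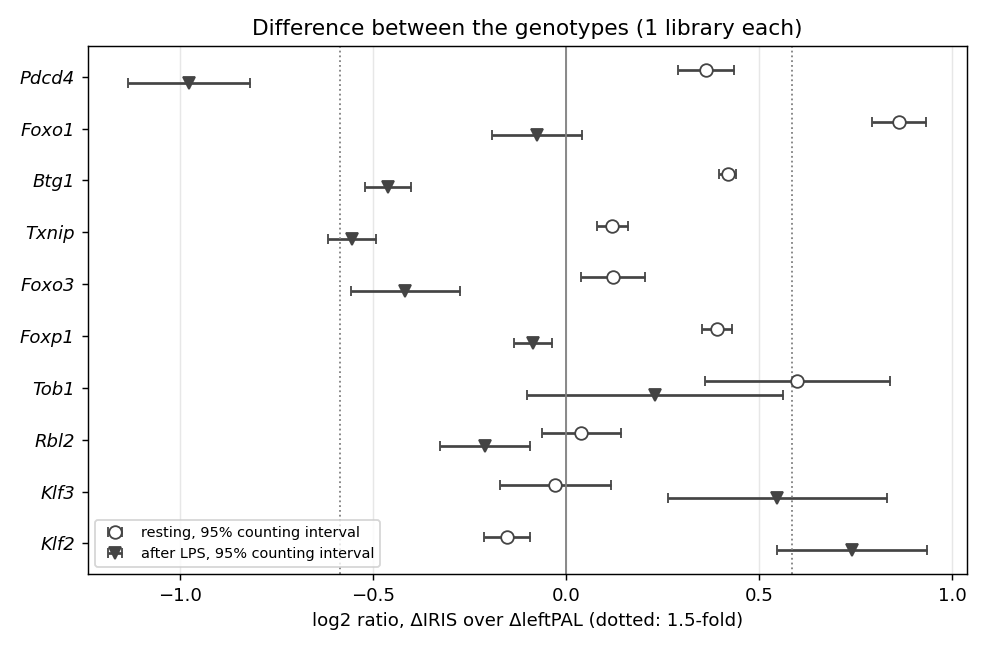
Log2 ratio of ΔIRIS over ΔleftPAL cells for each quiescence factor at rest (open circles) and after LPS (filled triangles), with 95% counting intervals and dotted lines at 1.5-fold. Genes are ordered by the difference of the 2 ratios. Pdcd4 and Klf2 lie past 1.5-fold after LPS in opposite directions, and Foxo1 and, by a small margin, Tob1 (1.51-fold) lie past it at rest.

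The LPS change itself therefore differed in size between the genotypes, again without a replicate check. It was at least 1.5-fold lower in ΔIRIS than in ΔleftPAL cells for 4 members (Pdcd4, Foxo1, Btg1 and Txnip), against 9.36% of all genes, and at least 1.5-fold higher for Klf2, against 6.18% of all genes. The difference was largest for Pdcd4 (log2 -1.34, -1.51 to -1.17, or 2.53-fold), followed by Foxo1 (-0.94, -1.07 to -0.80), Klf2 (0.89, 0.69 to 1.09), Btg1 (-0.88, -0.94 to -0.82) and Txnip (-0.67, -0.75 to -0.60). Klf3 (0.57), Foxo3 (-0.54), Foxp1 (-0.48) and Rbl2 (-0.25) had intervals that excluded 0, and that of Tob1 (-0.37, -0.77 to 0.03) did not. The change was more negative in ΔIRIS cells for 8 of the 10 members, compared with 49% of all genes tested and 62.5% of the 3148 genes that were lower on LPS in edgeR. Both exceptions were the KLF genes. The ratio of ΔIRIS over ΔleftPAL cells went from 0.86 at rest to -0.07 after LPS for Foxo1, from 0.36 to -0.98 for Pdcd4 and from 0.42 to -0.46 for Btg1.

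The order of the members by level, per length, depended in part on the length used. FPKM divides by all exon bases of the gene in the count table, and kallisto TPM gives each transcript its own length. Btg1 was first at rest and Tob1 last in all 4 libraries by both measures. In resting ΔleftPAL cells Btg1 was at 209 FPKM, Txnip at 119.3 FPKM, Klf2 at 97.2 FPKM and Tob1 at 4.06 FPKM, and Txnip, Klf2 and Pdcd4 followed each other in this order in both genotypes by both measures. Foxp1 was the fifth by FPKM at rest (25.6 and 33.6 FPKM in ΔleftPAL and ΔIRIS cells) but the second by TPM (248.9 and 256.2 TPM). After LPS Txnip led by FPKM, at 59.1 and 40.3 FPKM, followed by Btg1 at 39.6 and 28.8 FPKM and Foxp1 at 16.8 and 15.8 FPKM. By TPM Foxp1 led after LPS, at 108.6 and 90.3 TPM, followed by Txnip at 81.2 and 54.9 TPM and Btg1 at 44.8 and 31.4 TPM. Txnip thus exceeded Btg1 after LPS by both measures, whereas Btg1 exceeded Txnip at rest. Foxo1, Foxo3, Klf3 and Rbl2 changed places among themselves between the measures. In ΔIRIS cells after LPS, Klf2 (11.4 FPKM, 12.97 TPM) stood above Pdcd4 (6.74 FPKM, 8.90 TPM), and in ΔleftPAL cells below it (6.81 against 13.3 FPKM, 7.98 against 17.9 TPM), by both measures. Btg1 exceeded its relative Tob1 by 51.4 and 45.4 times in FPKM at rest and by 17.7 and 11.0 times after LPS, and by 49.5, 44.02, 16.5 and 10.7 times in TPM.

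The deposited kallisto values resolve transcripts, and those with at least 20% of their gene's TPM in any library are named. Klf2, Foxo1, Btg1 and Tob1 had a single annotated transcript. For Txnip, ENSMUST00000074519 held 48.9% and 55.8% of the TPM in ΔleftPAL cells at rest and after LPS and 47.6% and 44.4% in ΔIRIS cells, and ENSMUST00000049093 held 37.4%, 32.3%, 35.8% and 41.2% in the same order. For Pdcd4, ENSMUST00000025931 held 54.0%, 66.2%, 62.3% and 64.9%, and ENSMUST00000165617 held 41.2%, 31.7%, 34.5% and 33.1%. Both start at the same base. The main transcript of Rbl2, ENSMUST00000034091, held 71.0% and 73.2% at rest and 78.8% after LPS in both genotypes. For Klf3, ENSMUST00000165536 held between 79.2% and 92.9%, and ENSMUST00000166409 reached 20.8% in resting ΔIRIS cells. For Foxo3, ENSMUST00000105502 held between 63.6% and 84.1%, and ENSMUST00000177542, a transcript of 514 bases, held 20.8% in resting ΔleftPAL cells but only 1.42% of the estimated counts there. Foxp1 had 32 annotated transcripts, of which ENSMUST00000113326 held 12.97% to 22.9% of the TPM and 46.8% to 60.5% of the estimated counts. Summed over its transcripts, the TPM of Foxp1 had a log2 change on LPS of -1.20 in ΔleftPAL and -1.504 in ΔIRIS cells, and its gene counts one of -0.61 and -1.08. TPM values are scaled to the total of a library without TMM factors, and for the other 9 members their log2 change lay 0.18 to 0.39 below that of the gene counts.

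Relatives of the members mostly fell with them, and the part of other cell types in these falls was not tested. Of 19 genes of the same families, 15 were tested, of which 12 fell, 1 rose and 2 did not pass the threshold of edgeR, where 27.9% of all genes tested fell and 36.4% rose. The median log2 change of these relatives was -1.04, against 0.12 over all genes. Klf4 was at 38.0 and 67.4 CPM in resting ΔleftPAL and ΔIRIS cells and at 0.928 and 0.58 CPM after LPS (shared log2 change -6.08 ± 0.36; edgeR, adjusted p = 0.000224). Klf6 fell by 3.50 ± 0.31 (edgeR, adjusted p = 0.000511) and Klf7 fell by 2.15 ± 0.18 (edgeR, adjusted p = 0.00045). The gene that rose was Rbl1, the p107 pocket protein of cycling cells, named here after its values were seen, from 29.3 and 32.95 CPM to 67.5 and 76.1 CPM (log2 1.20 ± 0.12; edgeR, adjusted p = 0.000747). At rest 4 of the 15 were at least 1.5-fold higher in ΔIRIS cells, against 6.74% of all genes.

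Targets of the FOXO factors and of KLF2 were lower after LPS for the most part. Of 21 FOXO targets 18 were tested, of which 14 fell, 2 rose and 2 did not pass, where 27.9% of all genes fell and 36.4% rose. Their median log2 change was -1.62, against 0.12 over all genes. Irs2, an adaptor of the insulin receptor, fell from 247.8 and 450.1 CPM to 22.3 and 15.1 CPM (-4.18 ± 0.38; edgeR, adjusted p = 0.00055). S1pr1, the receptor that guides lymphocytes out of tissue and is a target of FOXO1 and of KLF2, fell from 258.1 and 291.9 CPM to 21.5 and 22.3 CPM (-3.65 ± 0.14; edgeR, adjusted p = 0.000158). Pik3ip1, an inhibitor of PI3K, was at 34.4 CPM in resting ΔleftPAL and 100.9 CPM in resting ΔIRIS cells, and at 5.90 and 7.03 CPM after LPS (-3.21 ± 0.33; edgeR, adjusted p = 0.000819). At rest 6 of the 18 tested FOXO targets were at least 1.5-fold higher in ΔIRIS cells, against the 6.74% of all genes, and none was lower. After LPS none was higher and 2 were lower, against 1.96% and 4.5% of all genes. Of 6 KLF2 targets, of which 2 are also on the FOXO list, 5 were tested, 4 fell and 1 did not pass, with Itgb7 at -2.86 ± 0.13 (edgeR, adjusted p = 0.000158) and Cd69 at -2.16 ± 0.27 (edgeR, adjusted p = 0.00142). CD69 is induced early in activation, and KLF2 is known to activate S1pr1. Cxcr3, a KLF2 target too low to be tested and named after its values were seen, was at 3.81 and 1.75 CPM in resting ΔleftPAL and ΔIRIS cells and at 1.15 and 0.444 CPM after LPS.

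The partners of the other members did not move as a block. Of 10 inhibitors of PI3K, AKT and mTOR, 9 were tested, of which 4 fell, 1 rose and 4 did not pass, with Pik3ip1 (also a FOXO target) at -3.21, Inpp5d at -0.80 ± 0.12 (edgeR, adjusted p = 0.00298) and Ddit4 at 0.71 ± 0.23 (edgeR, adjusted p = 0.0407). Of 14 deadenylase genes and partners of BTG and TOB proteins, 6 rose, 2 fell and 6 did not pass, with a median of 0.11, where 36.4% of all genes rose and 27.9% fell. The same shares are the background of the other partner lists. Rqcd1, the CNOT9 subunit, rose by 1.85 ± 0.12 (edgeR, adjusted p = 0.000283), Cnot1, the scaffold, by 0.77 ± 0.12 (edgeR, adjusted p = 0.00322), and Cnot11 by 0.68 ± 0.13 (edgeR, adjusted p = 0.00743). Of the 7 tested genes around TXNIP, 4 rose and 3 fell. Txn1, thioredoxin itself, went from 37.1 and 41.6 CPM at rest to 217.4 and 217.7 CPM after LPS (2.47 ± 0.14; edgeR, adjusted p = 0.000194), so that it moved against its inhibitor Txnip in both genotypes. Txnrd1, the reductase, rose by 1.84 ± 0.13 (edgeR, adjusted p = 0.000301) and the glucose transporter gene Slc2a3 fell by 1.37 ± 0.17 (edgeR, adjusted p = 0.00142). Of the factors of the carbohydrate response element, named here after their values were seen, Mlx rose by 0.78 ± 0.17 (edgeR, adjusted p = 0.00971), Mlxip fell by 0.67 ± 0.12 (edgeR, adjusted p = 0.00537), and Mlxipl had at most 3 counts in each library. Of 7 PDCD4 partners, 2 rose, 3 fell and 2 did not pass. Eif4a1, the helicase that PDCD4 blocks, rose from 275.2 and 310.3 CPM to 858.3 and 939.4 CPM (1.62 ± 0.12; edgeR, adjusted p = 0.000351), and Eif4g1 by 1.53 ± 0.13 (edgeR, adjusted p = 0.000448). Btrc, a subunit of the ligase that degrades PDCD4, fell by 1.30 ± 0.15 (edgeR, adjusted p = 0.00116).

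Genes silenced by the DREAM complex rose. Of 15 such genes 14 rose and 1 (E2f2, named after its values were seen, log2 change 0.21, edgeR, adjusted p = 0.193) did not pass, where 36.4% of all genes rose, and the median was 3.35. Mybl2, which replaces the pocket proteins in the activating complex, rose from 5.57 and 5.71 CPM at rest to 98.4 and 96.6 CPM (4.11 ± 0.14; edgeR, adjusted p = 0.000158), Ccnb1, cyclin B1, by 4.01 ± 0.16 and Bub1, a checkpoint kinase, by 3.84 ± 0.14, both with an adjusted p of 0.000158 in edgeR. Of 9 subunits and E2F partners of DREAM, 5 rose, 1 fell and 3 did not pass. Tfdp1 rose by 3.41 ± 0.17 (edgeR, adjusted p = 0.00017) and Tfdp2, its relative, fell by 2.45 ± 0.15 (edgeR, adjusted p = 0.000253), while E2f4, the repressor E2F of the complex, rose by 1.05 ± 0.13 (edgeR, adjusted p = 0.00132). The subunits thus moved in both directions around the smaller fall of Rbl2. Of 7 genes of B cell activation, 3 rose, 3 fell and 1 did not pass, where 36.4% of all genes rose and 27.9% fell. The proliferation marker Mki67 rose by 2.78 ± 0.16 (edgeR, adjusted p = 0.00021) and Xbp1, a plasma cell factor, by 2.33 ± 0.19 (edgeR, adjusted p = 0.000451). Of the 7 B cell markers 5 fell and 2 did not pass, where 27.9% of all genes fell. Their median was -0.58, against -1.66 for the members and 0.12 over all genes.

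**Figure D4:**
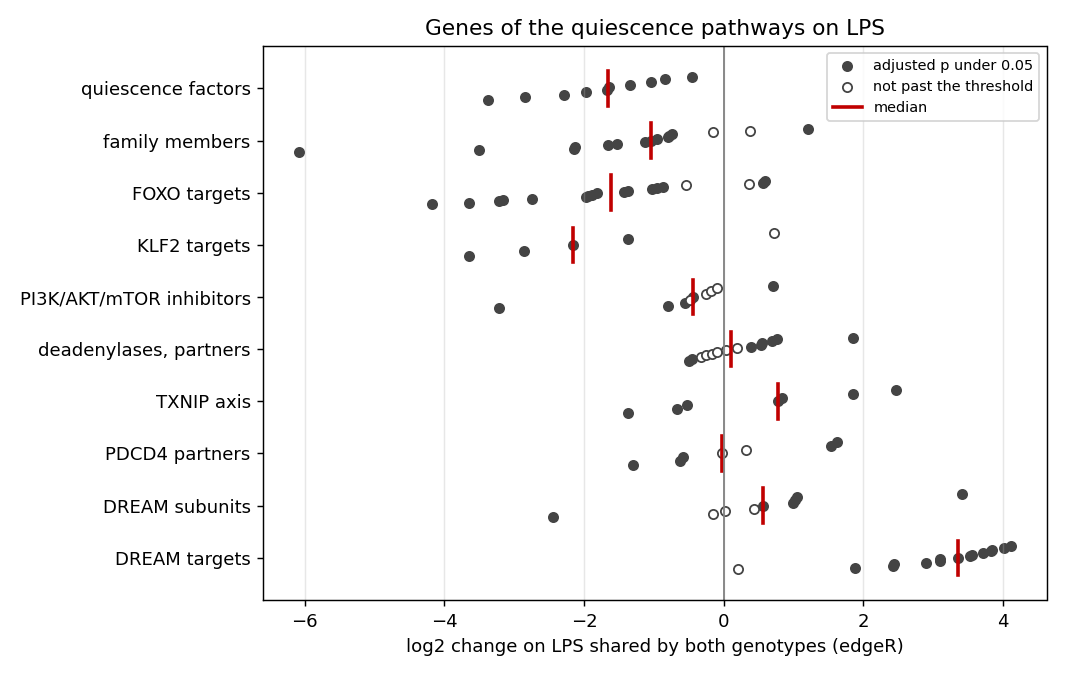
Log2 change on LPS shared by both genotypes, from edgeR, for the tested genes of the quiescence factors and of each related list. Each point is 1 gene, filled where the adjusted p was under 0.05, and red bars are the medians, which run from -2.16 for the KLF2 targets to 3.35 for the DREAM targets. Some genes are on 2 lists.

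The genes with the profile nearest to the median profile of the 10 members, by Euclidean distance of centred log2 CPM over the 4 libraries, were Calcoco1 (distance 0.0753), Pip4k2a (0.0837), 5031425E22Rik (0.0923), 4930539J05Rik (0.106) and Slc15a4 (0.112). Pip4k2a, a kinase of phosphatidylinositol 5-phosphate, was at 96.4 and 38.9 CPM in ΔleftPAL cells at rest and after LPS and at 113.1 and 33.9 CPM in ΔIRIS cells. Slc15a4, a lysosomal histidine transporter needed for Toll-like receptor signalling in B cells, was at 117.6, 48.2, 128.0 and 39.4 CPM in the same order. Calcoco1, a selective autophagy receptor, was at 22.1, 8.05, 24.8 and 6.93 CPM.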

How the data were processed

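Total RNA depleted of ribosomal RNA was sequenced as paired reads of 150 nt from a stranded library. The authors mapped reads with STAR 2.4.0a to mm10 with Ensembl release 77 and deposited raw featureCounts counts of fragments per gene symbol (Subread 1.4.6-p1; primary alignments, multi-mapping reads kept, strand option 1), without normalisation. The authors also deposited kallisto 0.42.3 estimated counts and TPM values for 88198 transcripts (TPM has a fixed library sum). The kallisto index and settings are not given in the sources used here. Member counts were 0.939 to 1.03 times the estimated counts. With a stranded library, strand option 1 may count reads of the opposite strand. Whether it was the option that gave these counts is not known. A row without a gene name (0.00876 to 0.0265% of counts) was left out.

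The members and lists were chosen with earlier results of these data known. Counts were scaled with TMM (edgeR 4.0.16, R 4.3.3). The LPS change was fitted with edgeR's quasi-likelihood test, genotype as covariate, over 11286 genes whose mean count was 50 or more, with Benjamini-Hochberg adjustment. P-values reflect the spread between 4 libraries, with the error of each gene moderated in edgeR toward that of the other genes tested. Genotype ratios have 95% Clopper-Pearson intervals, and differences of changes intervals by normal approximation on log counts; both cover counting error only. Genes 1.5-fold apart were counted on CPM plus 0.5, which understates the ratios of low genes. Named were all members, the 3 genes of each list with the largest change on LPS, and the 5 genes nearest to the members' median profile. Some genes of the lists are counted but not reported here by name. The procedure was tested on simulated counts whose LPS change was the same in both genotypes. That test does not cover an LPS change that differs between the genotypes. Alternatives were library totals, DESeq2 1.42.0 size factors or Wald test, TMM without immunoglobulin genes and estimated counts rounded to whole numbers. Further ones were other count minimums, a prior of 5 CPM, 2-fold and no covariate. Each library was also omitted in turn, in fits without the covariate. Gene positions and exon lengths, which FPKM uses, are those of the count table, gene and transcript identifiers those of the kallisto tables, and overlaps are from GENCODE M21, matched by name. Other steps were done in Python 3.11.15 with pandas 2.3.3, numpy 2.4.6 and scipy 1.17.1. The targeted region has no gene in the count table to check the genotype labels.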

Additional observations from a re-analysis of the deposited data

How the results depend on the processing

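With 1 library per group, every genotype ratio rests on 2 libraries, and Tob1 and Klf3 had the fewest counts. The direction of the LPS change of the 10 members was the same under all alternatives. All 10 were lower in edgeR, 9 with kallisto estimated counts and 9 with the DESeq2 Wald test, the lost call being that of Rbl2. Fits without 1 library also left out the genotype term, and there calls of Rbl2, Tob1 and Foxp1 were lost, as given above. With 1 library left in a state, these fits cannot tell the omissions apart, and the cause was not tested. Genes changed on LPS numbered 7253, and 6377 with the DESeq2 Wald test. The LPS fit pairs the libraries of each genotype, and without the genotype term 7072 genes changed and all 10 members were lower.

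Members at least 1.5-fold higher in ΔIRIS cells at rest numbered 1, but 2 with DESeq2 size factors or kallisto estimated counts and 0 at 2-fold. After LPS they numbered 1, but 2 with estimated counts and 0 with a prior of 5 CPM or at 2-fold, and members lower numbered 1, but 0 at 2-fold. Genes at least 1.5-fold apart at rest numbered 1243, but 742 with a minimum mean of 200 counts, 566 with a prior of 5 CPM and 322 at 2-fold. After LPS they numbered 729, but 1095 with a minimum of 10 counts, 397 with 200, 277 with the larger prior and 223 at 2-fold. A higher minimum tests fewer genes and a lower one more, a larger prior shrinks the ratios of low genes, and 2-fold is a larger threshold, so these counts move by construction. Of 56 transcript shares, 38 moved when taken from estimated counts in place of TPM.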
